A study of Mus musculus with 62 samples.

Results

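The 41 genes described here lie on the distal part of mouse chromosome 16 that is present in 3 copies in Ts65Dn mice. They were chosen by name and are not all genes of that segment with such roles. Among them are genes for enzymes, chaperones, transcription factors, membrane proteins, kinases and secreted proteins, from Cyyr1 to Zbtb21 (mm10, chr16:85452858-97962627). All 41 are protein-coding in RefSeq and were found in both count tables, which hold 27179 genes. The segment, taken from 84718281 to the end of the chromosome, holds 100 further genes of the tables, and Ts65Dn mice also carry an additional copy of 57 genes of proximal chromosome 17.

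A gene present in 3 copies and transcribed at the same rate per copy gives 1.5 times the transcript of a gene in 2 copies, 0.585 on the log2 scale. A ratio below 1.5 is usually called dosage compensation or buffering, and a ratio above it amplification. The segment is orthologous to a part of human chromosome 21, and the genes it holds are the candidates for the features of Down syndrome that follow from dosage. In brain tissue, the question for each gene is whether its transcript follows the copy number, and whether restoring the copy number of 1 other gene of the segment, Brwd1, alters it.

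RNA was sequenced from forebrain at embryonic stage E17.5 (8 euploid and 7 Ts65Dn embryos) and from hippocampus of 6-week-old mice. The adult groups were euploid (8 males, 8 females), Ts65Dn (7 males, 8 females) and Ts65Dn;Brwd1+/- (8 males, 8 females), so that 62 libraries fell into 8 groups. All animals were of the mixed background DBA/2J x B6EiC3Sn/J. Per the study's methods, Ts65Dn;Brwd1+/- animals came from Ts65Dn females crossed to males heterozygous for the Brwd1 repro5 mutation, and the study describes the additional segment as a separate chromosome that segregates freely. Each library is 1 animal, nothing in the labels pools animals, and the embryos carry no sex label. By the sex markers Xist and Ddx3y, euploid replicates 3 and 6 and Ts65Dn replicates 1, 2 and 7 read as male. The remaining embryos read as female, and the part of sex in the E17.5 values was not tested. The titles of the embryos hold a number shared by 8 embryos (title number 1) or by 7 (title number 2), with both genotypes under each. The labels do not say what it stands for. Because tissue differs with age, a difference between embryonic and adult values cannot be assigned to one or the other.

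Library totals ran from 14.9 to 62.6 M reads at E17.5 and from 33.6 to 137.1 M reads in adults. At E17.5 the median was 23.7 M reads in euploid and 43.1 M reads in Ts65Dn embryos. Neuronal, forebrain and hippocampal marker genes were all above a median of 1 CPM (reads of a gene per M reads of the library, with TMM-scaled totals) at both stages. Among the 31 adult libraries labelled trisomic, 4 had triplicated genes at the euploid level and go against their genotype label (male Ts65Dn replicate 1, male Ts65Dn;Brwd1+/- replicates 2 and 8, and female Ts65Dn;Brwd1+/- replicate 3). Male Ts65Dn replicate 7 and female euploid replicate 7 go against their sex label. Female euploid replicate 2 and female Ts65Dn;Brwd1+/- replicate 7 were low in genes with long exons, by 1.03 and 1.01 on the log2 scale against the genes with short exons, where the other 45 adult libraries lay between -0.25 and 0.24. No library was left out of the values that follow unless this is stated, and counts and medians of members without the 4 against their genotype label, or without all 8, are given beside the main comparisons. Brwd1 itself, the gene targeted by the cross, had a log2 fold change of 0.53 ± 0.09 (SE) in male Ts65Dn vs euploid, of -0.25 ± 0.09 in male Ts65Dn;Brwd1+/- vs Ts65Dn (edgeR adjusted p = 0.626) and of -0.25 ± 0.11 in the female counterpart (adjusted p = 1.0). In Ts65Dn;Brwd1+/- vs euploid it had 0.28 ± 0.09 in males (edgeR adjusted p = 0.231) and 0.21 ± 0.11 in females (adjusted p = 0.453). These values of Brwd1 include the libraries against their genotype label.

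**Figure D1:**
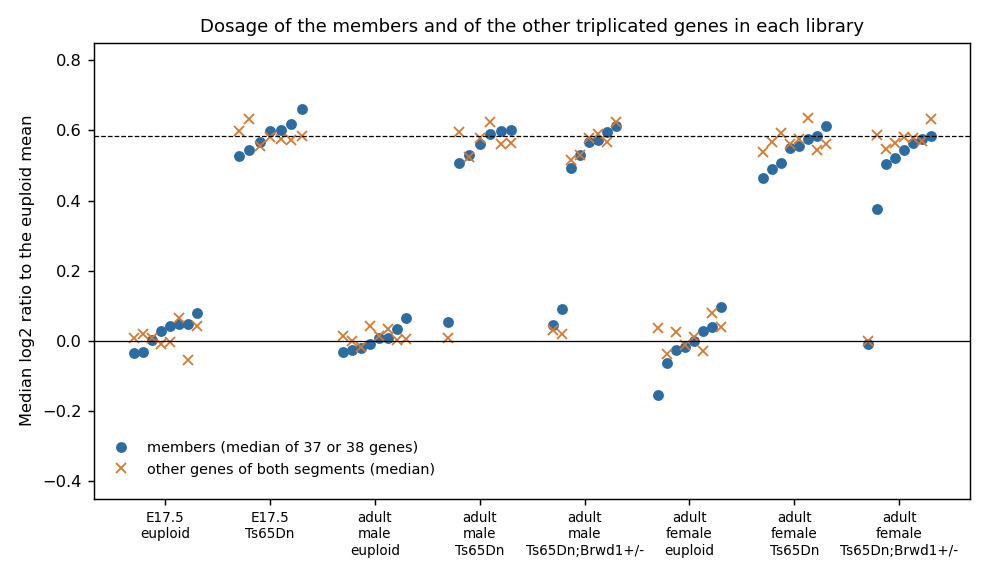
Each position on the horizontal axis is 1 library, sorted within its group. The vertical axis is the median log2 ratio to the mean of the euploid libraries of the same stage and sex, for the tested members (circles, 37 genes at E17.5 and 38 in adults) and for the other genes of both triplicated segments (crosses), and the dashed line marks a ratio of 1.5. All 7 E17.5 Ts65Dn libraries lie between 0.53 and 0.66, and the 4 adult libraries labelled trisomic that lie near 0 are those against their genotype label.

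Read in single libraries, the members were summarized by their median, which does not show each of them. Their median log2 ratio to euploid lay between -0.04 and 0.08 in the 8 euploid embryos and between 0.53 and 0.66 in the 7 Ts65Dn embryos. In adult males it lay between 0.51 and 0.60 in 6 Ts65Dn libraries and at 0.05 in replicate 1, and in adult females between 0.46 and 0.61 in all 8 Ts65Dn libraries. The plot of dosage by library sets these medians beside those of the other triplicated genes, which ran from 0.56 to 0.63 in Ts65Dn embryos. The medians cover only members that passed the filter on low counts, and a gene can pass it through the group in which it is higher.

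At E17.5, 37 members passed the filter and 26 of them were higher in Ts65Dn vs euploid (edgeR quasi-likelihood test, Benjamini-Hochberg adjusted p under 0.1), where 1.1% of all 16395 genes tested were called higher. No member was lower (0.244% of genes), and all 37 had a log2 fold change above 0. The median log2 fold change was 0.55 over the members, 0.56 over the 55 other tested genes of the segment, 0.56 over the 41 tested genes of the chromosome 17 segment and -0.01 over the 404 tested genes of chromosome 16 that lie before the segment. In adults, 38 members were tested. Of these, 25 were higher in male Ts65Dn vs euploid (0.671% of all genes), 23 in females (1.94%) and 32 in the mean of both sexes (2.3%), again with none lower (0.125%, 1.22% and 1.11% of genes). The adult medians were 0.49 in males, 0.51 in females and 0.52 in the mean of the sexes, against 0.54 over the other genes of the segment and 0.49 over the chromosome 17 segment in the mean. Without the 4 libraries against their genotype label, 28 members were higher in males (median 0.56, 0.923% of genes), 23 in females (2.17%) and 33 in the mean of the sexes (median 0.55, 2.82%). Without all 8 libraries that stand apart, the counts were 27 in males (0.987% of genes), 29 in females (5.98%) and 32 in the mean (4.5%).

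The groups separated completely for part of the members. At E17.5 every Ts65Dn embryo was above every euploid embryo for 18 of 37 members, which held for 0.464% of all genes tested. In adult males this was so for 8 of 38 members (0.142% of genes), and for 24 (0.647% of genes) when the library against its genotype label was set aside. For each of the 8, the lowest Ts65Dn value was that of this library. Their separation therefore includes a library with triplicated genes at the euploid level. In adult females every Ts65Dn library was above every euploid library for 13 of 38 members (0.437% of genes).

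**Figure D2:**
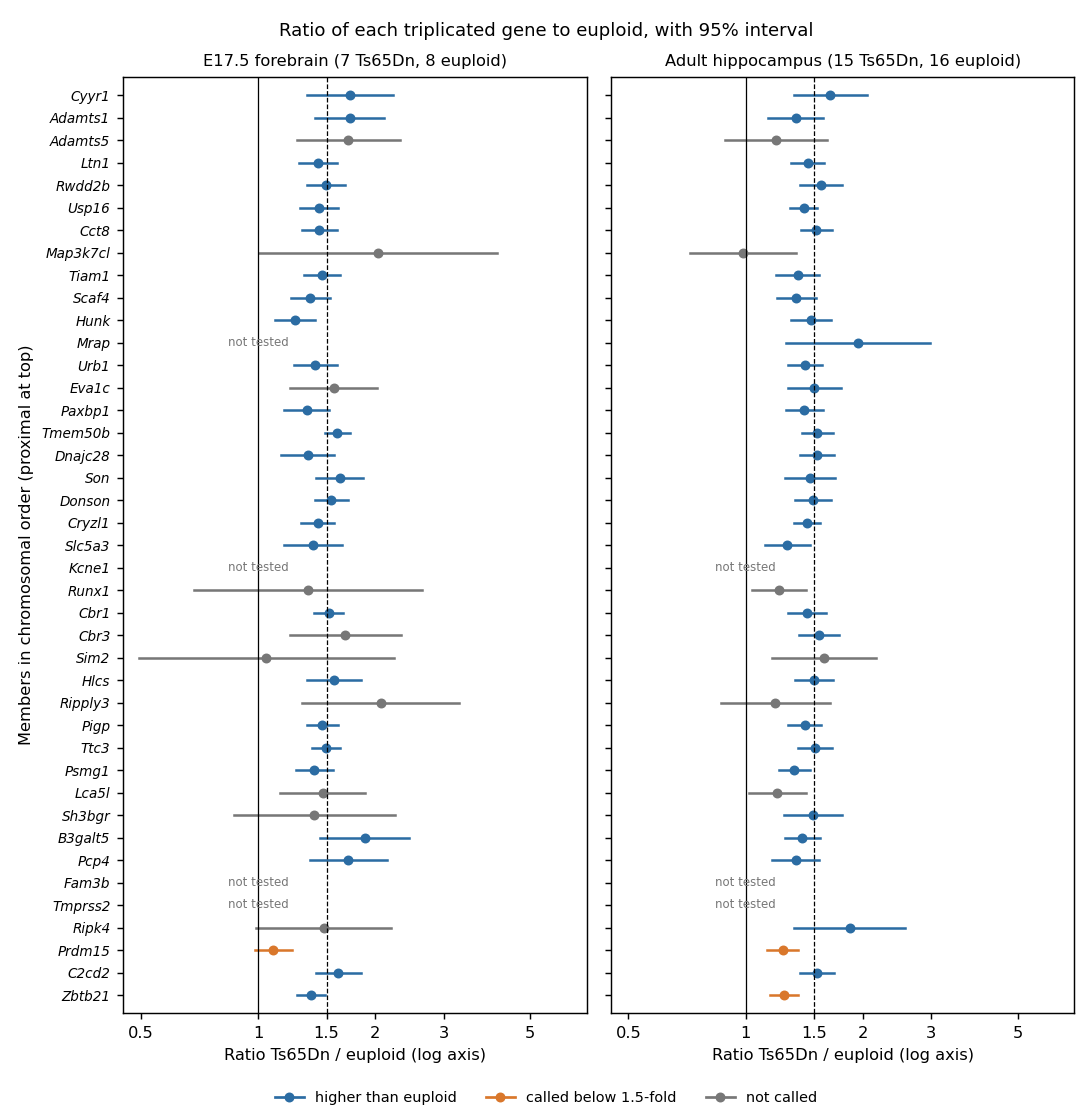
Ratio of Ts65Dn to euploid for each member, in chromosomal order from the proximal end at the top, at E17.5 (left) and in adults as the mean of the sexes (right), on a log axis. Points are the ratios and bars their 95% intervals, the solid line marks 1 and the dashed line 1.5. Members called below 1.5-fold are in orange, of which Prdm15 and Zbtb21 in adults were also higher than euploid.

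Of the members of protein quality control and ubiquitin signalling, 6 of 6 were higher at E17.5 and 6 of 6 in the adult mean. Cct8 (chr16:87483325-87495869), a subunit of the chaperonin that folds actin and tubulin, was the member with the highest level per length at E17.5, at 90.1 RPKM (CPM per kilobase of exon) in euploid embryos. It ranged from 235 to 324 CPM in euploid embryos (median 274) and from 345 to 451 CPM in Ts65Dn embryos (median 394). The groups did not overlap, and the log2 fold change was 0.52 ± 0.07 (SE, adjusted p = 0.000366). In adult females it ran from 127 to 172 CPM in euploid and from 212 to 255 CPM in Ts65Dn animals, and the adult mean of the sexes was 0.61 ± 0.07 (adjusted p = 1.67e-08).

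Ttc3 (chr16:94370625-94469222), a ubiquitin ligase with tetratricopeptide repeats, was second in level at both stages, with 87.2 RPKM at E17.5 and 60.1 RPKM in adult euploid hippocampus. Its values were 1238 to 1505 CPM (median 1434) in euploid embryos and 1899 to 2308 CPM (median 2117) in Ts65Dn embryos, with no overlap, for a ratio of 1.5 (95% interval 1.38 to 1.63). In adult males, Ts65Dn libraries ran from 924 to 1633 CPM and euploid libraries from 961 to 1164 CPM. The lowest of the Ts65Dn values was that of replicate 1, against its genotype label, and the next lowest was 1339 CPM. The adult ratio in the mean of the sexes was 1.51 (1.36 to 1.67). The remaining genes of this group were Ltn1, the ubiquitin ligase of stalled ribosomes, Usp16, which removes ubiquitin from histone H2A, Psmg1, a chaperone of proteasome assembly, and Dnajc28, a J-domain protein. Their log2 fold changes ran from 0.42 (Dnajc28) to 0.52 (Usp16) at E17.5 and from 0.42 (Psmg1) to 0.61 (Dnajc28) in adults. Usp16 and Cct8 overlap at their ends on opposite strands (6.22% of the exon bases of Cct8), and the library kit does not mark strand, so reads of that stretch cannot be assigned to one of them.

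Both genes of ribosome production and DNA replication were higher at both stages. Donson (chr16:91666856-91688932), which acts at replication forks, rose from 31.6 to 35.1 CPM (median 33.6) in euploid embryos to 43.0 to 59.3 CPM (median 52.8) in Ts65Dn embryos, a log2 fold change of 0.63 ± 0.07 (adjusted p = 3.91e-05). No Ts65Dn embryo reached down into the euploid range. In adults the log2 fold change of Donson was 0.58 ± 0.08 (adjusted p = 7.04e-07). Urb1, a factor of the large ribosomal subunit, had 0.49 ± 0.09 at E17.5 and 0.51 ± 0.07 in adults.

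Of the 6 enzymes of metabolism, 5 were higher at E17.5 and 6 in the adult mean. Cbr1 (chr16:93607837-93610349), a carbonyl reductase, had the highest level of the group at both stages, 23.2 RPKM at E17.5 and 20.7 RPKM in adults. It ranged from 54.0 to 66.4 CPM in euploid embryos (median 58.7) and from 81.6 to 101 CPM in Ts65Dn embryos (median 91.9), a ratio of 1.52 (1.39 to 1.66, adjusted p = 1.53e-05) without overlap. Its neighbour and paralog Cbr3 was low at E17.5, from 1.48 to 4.16 CPM in euploid and from 3.72 to 6.78 CPM in Ts65Dn embryos, and did not pass the test there (0.75 ± 0.22, adjusted p = 0.160). In adults Cbr3 was higher by 0.63 ± 0.09 (adjusted p = 1.25e-06). Reads shared by the paralogs may have been split between them or dropped in counting.

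B3galt5 (chr16:96235801-96319859), a galactosyltransferase that builds glycan chains, was among the members with the highest ratios at E17.5. Euploid embryos ran from 6.28 to 15.5 CPM (median 11.2) and Ts65Dn embryos from 16.5 to 23.7 CPM (median 19.6), a log2 fold change of 0.91 ± 0.18 (ratio 1.88, 1.45 to 2.45, adjusted p = 0.0180). The groups were just separate, and the interval reached below 1.5. In adult hippocampus B3galt5 was far more abundant per length, at 13.6 RPKM against 1.78 RPKM in euploid embryos, and its ratio was 1.4 (1.26 to 1.55). Hlcs, which attaches biotin to carboxylases, Pigp, a subunit of the first step of GPI anchor synthesis, and Cryzl1, a quinone reductase-like protein, had log2 fold changes from 0.51 to 0.65 at E17.5 and from 0.50 to 0.59 in adults. Of the exon bases of Pigp, 16.4% are shared with Ttc3 on the opposite strand.

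Among the membrane proteins, 4 of 5 tested were higher at E17.5 and 6 of 6 in the adult mean. Tmem50b (chr16:91574508-91597680), a protein of the endoplasmic reticulum membrane, ranged from 80.3 to 95.6 CPM in euploid embryos and from 135 to 149 CPM in Ts65Dn embryos. Its 2 groups were narrow and far apart, and the log2 fold change of 0.68 ± 0.05 (ratio 1.60, 1.49 to 1.72, adjusted p = 7.86e-07) had the smallest adjusted p of the members at E17.5. In adults the ratio was 1.53 (1.395 to 1.67).

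Cyyr1 (chr16:85452858-85550905), a small membrane protein rich in cysteine and tyrosine, was low at both stages (0.150 RPKM at E17.5, 0.264 RPKM in adults). Euploid embryos had 1.1 to 2.00 CPM and Ts65Dn embryos 1.78 to 2.74 CPM, a log2 fold change of 0.78 ± 0.17 (adjusted p = 0.0420). In adults it was 0.72 ± 0.16 (adjusted p = 0.00342), with euploid females from 0.649 to 2.82 CPM and Ts65Dn females from 2.56 to 4.61 CPM. Mrap (chr16:90738207-90749785), the accessory protein of the ACTH receptor, had the highest adult log2 fold change of the members, 0.96 ± 0.31 (ratio 1.95, 1.27 to 2.99, adjusted p = 0.0897). It rested on few reads, from 0 to 61 a library in euploid and from 3 to 55 in Ts65Dn animals, and the ranges overlapped in both sexes. The call of Mrap was lost in the fit without a filter on low counts (adjusted p = 0.115), with upper-quartile scaling (adjusted p = 0.103) and without the libraries against their sex label (adjusted p = 0.190), and over all alternatives its adjusted p ran from 0.0113 to 0.190. In 5 of 6 adult groups the library highest in Mrap had a sum of choroid plexus markers above the median of its group, and their part in the result was not tested. Slc5a3, the transporter of myo-inositol, had 0.47 ± 0.12 at E17.5 and 0.36 ± 0.10 in adults, and Eva1c had 0.65 ± 0.18 (adjusted p = 0.119) and 0.59 ± 0.11.

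Of the transcription factors and RNA-binding proteins, 4 of 8 were higher at E17.5 and 5 of 8 in the adult mean. Son (chr16:91647824-91679192), a splicing factor of nuclear speckles, had the highest level of the group. It ran from 330.3 to 463 CPM in euploid embryos (median 391) and from 467 to 760.0 CPM in Ts65Dn embryos (median 609), a log2 fold change of 0.70 ± 0.10 (adjusted p = 0.000444), and was 0.55 ± 0.11 (adjusted p = 0.00100) in adults. In adult females the euploid minimum of 182 CPM was that of replicate 2, one of those low in genes with long exons. The female difference of Son did not pass the test (0.52, adjusted p = 0.128). Scaf4, which acts in transcription termination, and Paxbp1 were higher at both stages, by 0.42 to 0.45 at E17.5 and by 0.43 to 0.50 in adults. Of the exon bases of Paxbp1, 20.7% are shared with a gene on the opposite strand.

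The 3 low transcription regulators Runx1, Sim2 and Ripply3 were not called at either stage. Runx1 is known for blood development, Sim2 is a basic helix-loop-helix factor of the midline, and Ripply3 is a corepressor of T-box factors. Sim2 (chr16:94085104-94127032) ranged from 0.187 to 3.58 CPM in euploid embryos (median 0.557) and from 0.362 to 1.37 CPM in Ts65Dn embryos (median 0.769). The highest euploid value was that of replicate 3, and the other 7 euploid embryos lay at 0.633 CPM or below. The log2 fold change was 0.07 ± 0.52 with this embryo and 0.84 without it (adjusted p = 0.250). The same embryo had the highest euploid values of Runx1 (6.07 CPM) and Adamts5 (20.3 CPM), and its markers of mural cells and meninges summed to 886 CPM, where the group had a median of 150.3 CPM and the Ts65Dn embryos ran from 169.9 to 266 CPM. The part of these cells in the result was not tested. Without this embryo 29 members were higher at E17.5, where 2.44% of all genes were, Adamts5 (adjusted p = 0.000620) and Ripply3 (adjusted p = 0.0950) among them. Ripply3 (chr16:94328422-94336935) had 0.0779 to 0.926 CPM in euploid and 0.494 to 1.14 CPM in Ts65Dn embryos, the highest log2 fold change at E17.5 (1.05 ± 0.32, adjusted p = 0.162). In adults its values were 0.101 to 0.568 CPM in all 4 groups of euploid and Ts65Dn animals, with a log2 fold change of 0.25 ± 0.23.

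Of the 5 signalling members, 3 were higher at E17.5 and 4 in the adult mean. Pcp4 (chr16:96467606-96525793), a small calmodulin-binding protein of neurons, was the member with the highest level in adult hippocampus, 89.1 RPKM in euploid animals. In embryos it ran from 53.2 to 92.9 CPM in euploid (median 83.1) and from 84.5 to 184 CPM in Ts65Dn animals (median 127), for 0.77 ± 0.16 (adjusted p = 0.0236). In adult males the ranges were 68.5 to 88.6 CPM and 103 to 139 CPM, with no overlap. The lowest of the male Ts65Dn values was that of replicate 1, against its genotype label. In adult females they were 77.4 to 144 CPM and 95.5 to 159 CPM, where the highest euploid value was that of replicate 7, against its sex label. The forebrain markers summed to a median of 1125 CPM in euploid and 721 CPM in Ts65Dn embryos, with ranges from 796 to 1632 CPM and from 271 to 1351 CPM, and none of these 5 markers was called. Their part in the values of Pcp4 was not tested. In bulk tissue, fewer cells of a type and less RNA per cell cannot be told apart.

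Hunk (chr16:90385284-90499555), a kinase related to the AMP-activated kinases, was among the lowest at E17.5. Euploid embryos had 55.3 to 64.6 CPM and Ts65Dn embryos 56.7 to 88.3 CPM (medians 60.1 and 69.9), and the ratio of 1.25 (1.105 to 1.403, adjusted p = 0.0955) lay between 1 and 1.5. In adults Hunk had a ratio of 1.47 (1.31 to 1.65). Tiam1, an exchange factor of the GTPase Rac, had 0.54 ± 0.07 at E17.5 and 0.44 ± 0.09 in adults. Map3k7cl (chr16:87553330-87595336) was near the limit of detection, from 0 to 0.540 CPM in euploid and from 0.275 to 0.988 CPM in Ts65Dn embryos. Its log2 fold changes of 1.03 ± 0.48 at E17.5 (adjusted p = 0.411) and -0.03 ± 0.22 in adults (adjusted p = 0.983) did not pass the test.

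Ripk4 (chr16:97741933-97763779), a kinase of epithelial differentiation, had a log2 fold change of 0.56 ± 0.28 at E17.5 (adjusted p = 0.425) and of 0.89 ± 0.24 in the adult mean (ratio 1.85, 1.33 to 2.57, adjusted p = 0.0282). Adult values ran from 0.643 to 3.32 CPM in euploid and from 0.863 to 3.35 CPM in Ts65Dn males, and from 0.533 to 2.94 CPM and 1.79 to 5.32 CPM in females. The ranges overlapped in both sexes. In 6 of 6 adult groups the library with the highest Ripk4 had a sum of choroid plexus markers above the median of its group, for example 5032 CPM against 561 CPM in Ts65Dn females and 4419.5 CPM against 1046 CPM in euploid males. Choroid plexus markers varied from 31.0 to 6148 CPM over the adult libraries, with no marker of the 6 called between Ts65Dn and euploid animals, and their part in the values of Ripk4 was not tested. The same count was 6 of 6 for Adamts1, Pigp and Ripply3 and 5 of 6 for 7 further tested members, so it was not particular to Ripk4.

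The secreted and transmembrane proteases had 2 tested members. Adamts1 (chr16:85793827-85803113), a metalloprotease that cleaves the proteoglycans of the extracellular matrix, ran from 9.74 to 19.4 CPM in euploid embryos (median 12.1) and from 19.8 to 28.3 CPM in Ts65Dn embryos (median 22.8). The groups were just separate, and the log2 fold change was 0.78 ± 0.14 (adjusted p = 0.00748). In adults it was 0.43 ± 0.12 (adjusted p = 0.0350), a call that was lost without the 2 libraries against their sex label (0.35, adjusted p = 0.128). Adamts5 (chr16:85858157-85901125), a related aggrecanase, had 6.49 to 20.3 CPM in euploid and 12.3 to 21.3 CPM in Ts65Dn embryos, 0.77 ± 0.21 (adjusted p = 0.117), and 0.26 ± 0.22 (adjusted p = 0.695) in adults. Its highest adult euploid value, 9.03 CPM, was in female replicate 7. Of the other genes, Rwdd2b (chr16:87433331-87440592) rose from 8.90 to 12.5 CPM in euploid embryos to 15.9 to 17.7 CPM in Ts65Dn embryos (0.58 ± 0.08, adjusted p = 0.000378) and had 0.64 ± 0.09 in adults. Lca5l was not called at either stage (0.55 and 0.27), and Sh3bgr had 0.48 ± 0.33 at E17.5 and 0.58 ± 0.12 in adults (adjusted p = 0.00300).

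Fam3b, Kcne1 and Tmprss2 did not pass the filter at either stage, and Mrap did not pass at E17.5. Fam3b had 0 reads in all 15 embryos and at most 4 in any adult library, and Tmprss2, a serine protease, had 78 reads over all embryos and 215 over all adults. Kcne1, a subunit of a slow potassium channel, was listed with 0 to 4 reads in euploid embryos and with 4 to 24 in Ts65Dn embryos, which is 0 to 0.135 CPM and 0.195 to 0.465 CPM. The ranges of CPM did not overlap, and a fit without the filter gave a ratio of 4.49 (2.21 to 9.12, adjusted p = 0.0540). Kcne1 was singled out after its values were seen. Mrap had 0 to 0.463 CPM in euploid and 0.209 to 1.34 CPM in Ts65Dn embryos, overlapping ranges, and the same fit gave a ratio of 3.67 (1.63 to 8.24, adjusted p = 0.199). Both intervals lay wholly above 1.5, but in that fit neither gene was called above 1.5-fold. In adults Kcne1 had at most 15 reads in a library and a ratio of 0.945 (0.405 to 2.2) in the same fit.

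Calls followed the level. Of the 27 members at 1 RPKM or more in euploid embryos 25 were higher at E17.5, and the other 2 were Cbr3 and Prdm15. Of the 10 tested members under 1 RPKM, only Cyyr1 was called. In adults 28 of 28 members at 1 RPKM or more were called, and 4 of 10 below it. The median standard error of the log2 fold change was 0.08 and 0.07 above the limit and 0.30 and 0.22 below it, at E17.5 and in adults. Over the members the ratio itself had little relation to level, position or exon length (Spearman's rho from -0.22 to 0.06 over 37 or 38 genes, which share their libraries).

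**Figure D3:**
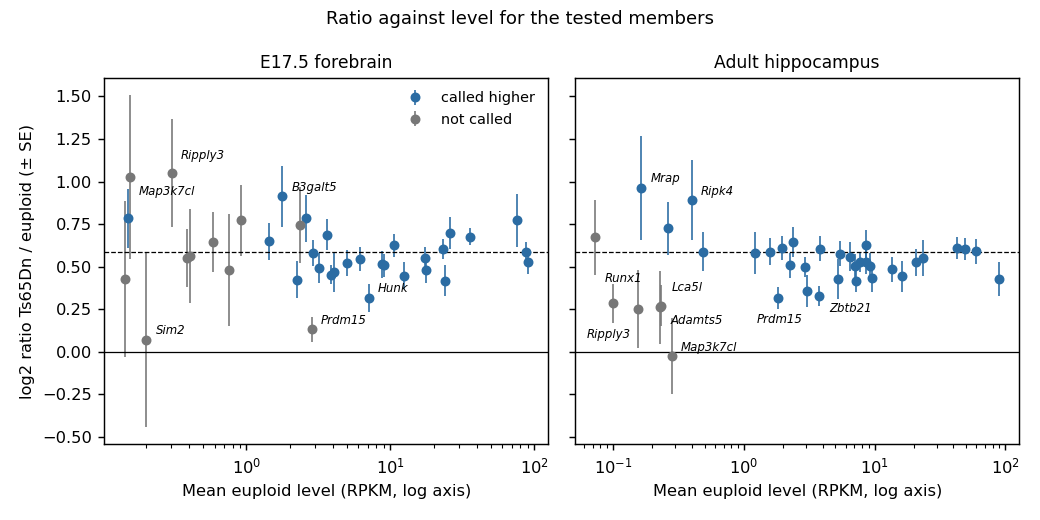
Log2 ratio of Ts65Dn to euploid (vertical axis, bars of 1 SE) against the mean level in euploid libraries (horizontal axis, RPKM, log axis) for the tested members at E17.5 and in adults. Blue points were called higher than euploid and the dashed line marks a ratio of 1.5. The spread and the bars are wider on the left, where members lie under 1 RPKM.

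Each ratio was then set against 1.5. At E17.5 the 95% interval of 30 of the 37 tested members held 1.5 and lay above 1, 2 intervals lay between 1 and 1.5 (Hunk and Zbtb21), that of Prdm15 held 1 and lay below 1.5, and 4 held both values (Runx1, Sim2, Sh3bgr and Ripk4). In adults 29 of 38 intervals held 1.5 and lay above 1. There were 6 between 1 and 1.5 (Slc5a3, Runx1, Psmg1, Lca5l, Prdm15 and Zbtb21), that of Map3k7cl held 1 and lay below 1.5, and those of Adamts5 and Ripply3 held both. No interval of a member that passed the filter lay wholly above 1.5 at either stage. In the test against a ratio of 1.5, adjusted over the tested genes of both segments, Prdm15 was the only gene called below it at E17.5 (0.752% of 133 genes), with adjusted p = 0.00167. In adults Zbtb21 (adjusted p = 0.00420) and Prdm15 (adjusted p = 0.00620) were called below it, where 3.65% of 137 genes were. A wide interval that holds 1.5 does not show that a gene follows its copy number, and the test does not place the remaining members at 1.5.

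Prdm15 and Zbtb21 both code for zinc finger transcription factors, of the PR domain and the BTB families, and lie near the distal end of the chromosome with C2cd2, a C2 domain protein, between them. All 3 genes are on the minus strand. Prdm15 spans chr16:97791467-97851875, C2cd2 chr16:97855209-97925795 and Zbtb21 chr16:97945795-97962627. The sequences of the 250 bases before a start of each gene (RefSeq, GRCm38.p6, read 5′ to 3′ on the minus strand) are shown because neighbours within this short stretch differed in their ratio. Capitals mark matches to the motifs searched on both strands, namely the CCAAT box, the GC box GGGCGG, which reads as CCGCCC on the opposite strand, the E-box CACGTG, the cyclic AMP response element TGACGTCA and the ZNF143 site. The window of Prdm15 (chr16:97851851-97852100) is that of 1 of 2 starts listed, that of C2cd2 (chr16:97922634-97922883) lies inside the annotated span of the gene, and that of Zbtb21 is chr16:97962623-97962872. Those of Prdm15 and Zbtb21 reach in part into the annotated spans of their genes.
Prdm15: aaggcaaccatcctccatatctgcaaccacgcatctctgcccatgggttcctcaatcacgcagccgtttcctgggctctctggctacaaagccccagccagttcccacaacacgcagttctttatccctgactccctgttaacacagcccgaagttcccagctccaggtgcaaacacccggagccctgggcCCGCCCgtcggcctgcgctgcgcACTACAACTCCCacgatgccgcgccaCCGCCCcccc
C2cd2: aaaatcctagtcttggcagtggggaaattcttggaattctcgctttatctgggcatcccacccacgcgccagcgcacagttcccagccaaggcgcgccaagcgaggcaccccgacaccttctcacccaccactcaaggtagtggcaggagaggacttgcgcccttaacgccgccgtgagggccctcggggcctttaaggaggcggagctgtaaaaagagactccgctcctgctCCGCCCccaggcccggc
Zbtb21: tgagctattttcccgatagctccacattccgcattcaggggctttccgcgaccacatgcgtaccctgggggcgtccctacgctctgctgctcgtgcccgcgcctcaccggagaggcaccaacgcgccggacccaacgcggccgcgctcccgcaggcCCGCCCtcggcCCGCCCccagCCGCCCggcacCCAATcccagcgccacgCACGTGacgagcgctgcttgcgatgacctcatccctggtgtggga

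The window of Prdm15 held 2 GC boxes and a ZNF143 site 36 bases before the start, that of C2cd2 held 1 GC box, and that of Zbtb21 held 3 GC boxes, a CCAAT box 62 bases and an E-box 45 bases before the start. Over the 32851 windows of the same length in the table, a GC box was found in 32.7%, a CCAAT box in 33.8%, the E-box in 6.02%, the cyclic AMP response element in 1.55% and the ZNF143 site in 0.883%. Of the 31 members with a window, 17 held a GC box, 9 a CCAAT box, 5 the E-box, 0 the cyclic AMP response element and 1, Prdm15, the ZNF143 site. A member was counted if any of its windows held the motif. The shares above are per window, so the counts cannot be compared with them directly. The GC content was 62.4% before Prdm15 and C2cd2 and 70.0% before Zbtb21, where the median window had 52.4%. A match describes these letters and was not tested for binding.

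In embryos Prdm15 ran from 27.2 to 36.4 CPM in euploid (median 32.5) and from 32.3 to 40.7 CPM in Ts65Dn animals (median 34.0). The ranges overlapped, and the ratio of 1.09 (0.980 to 1.22) was not distinguishable from 1 (adjusted p = 0.483). C2cd2, the next gene on the chromosome, ran from 24.9 to 31.8 CPM and from 36.4 to 55.7 CPM in the same embryos. Its groups were separate, with a ratio of 1.61 (1.41 to 1.84, adjusted p = 0.000363). Zbtb21 ran from 22.8 to 27.4 CPM and from 30.8 to 36.2 CPM, also without overlap, with a ratio of 1.37 (1.26 to 1.49, adjusted p = 0.000277) that was not called below 1.5 (adjusted p = 0.330).

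In adults all 3 genes were higher than euploid in the mean of the sexes, by ratios of 1.24 (1.14 to 1.36) for Prdm15, 1.52 (1.38 to 1.68) for C2cd2 and 1.25 (1.16 to 1.36) for Zbtb21. Prdm15 ran from 16.7 to 21.4 CPM in euploid and from 21.9 to 32.1 CPM in Ts65Dn males, and from 14.2 to 25.9 CPM and 24.3 to 26.8 CPM in females. The males were separate, with replicate 1, against its genotype label, as the lowest Ts65Dn male (21.9 CPM), and the females overlapped. The log2 fold change of Prdm15 was 0.43 (adjusted p = 0.00984) in males and 0.19 (adjusted p = 0.364) in females, a difference between the sexes that was not called in the interaction test. Zbtb21 ran from 20.9 to 26.7 CPM and 24.3 to 32.6 CPM in males, and from 17.1 to 30.1 CPM and 27.9 to 33.3 CPM in females. The lowest euploid female in all 3 genes was replicate 2, low in genes with long exons. Without that library and its counterpart in the cross, the adult differences from 1.5-fold were -0.31 for Prdm15 and -0.29 for Zbtb21 on the log2 scale (adjusted p = 0.000127 for each), and without all 8 libraries that stand apart -0.28 (adjusted p = 0.000279) and -0.25 (adjusted p = 1.70e-05). The members called below 1.5-fold in adults otherwise depended on the libraries. Without the 2 libraries against their sex label there were 7, with Runx1, Map3k7cl, Lca5l, Slc5a3 and Psmg1 added, and without all 8 libraries 6, with Tiam1, Map3k7cl, Slc5a3 and Psmg1 added.

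**Figure D4:**
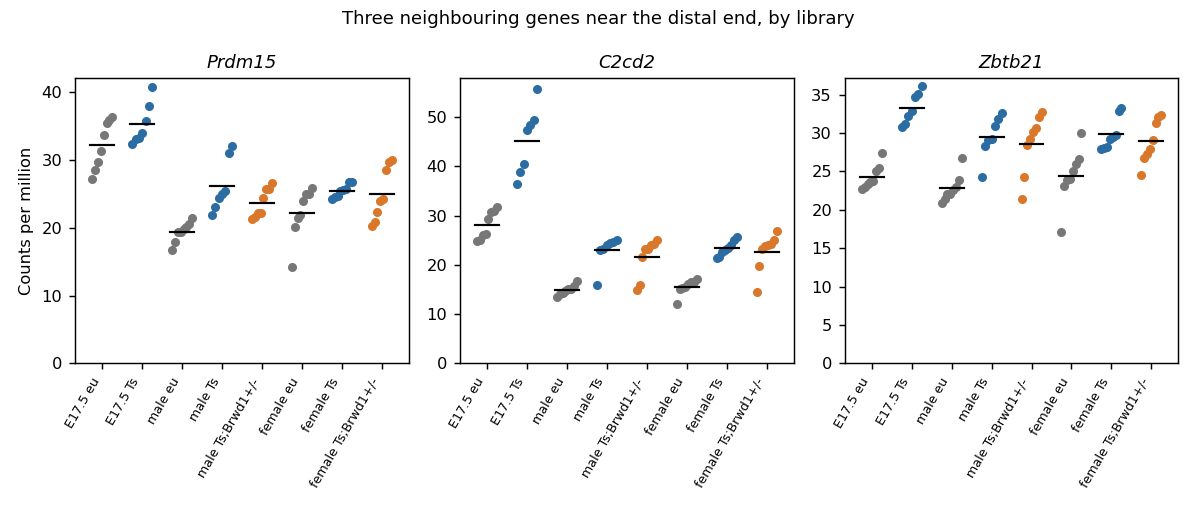
CPM of Prdm15, C2cd2 and Zbtb21 in each library (points, linear axes from 0), by group, with bars at the group means. Euploid libraries are gray, Ts65Dn blue and Ts65Dn;Brwd1+/- orange. In embryos the Ts65Dn values of C2cd2 (36.4 to 55.7 CPM) lie above all euploid values, while those of Prdm15 (32.3 to 40.7 CPM) overlap them.

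Between the sexes, no member was called in the interaction of sex and genotype, nor was any of the 17427 genes tested, while 11.1% of genes had an unadjusted p under 0.05 and DESeq2 called 39 genes (0.224%), no member among them. The members with an unadjusted p under 0.05 were Ttc3 and Dnajc28, with female minus male differences of 0.30 ± 0.14 and 0.31 ± 0.14. In Ttc3 the male log2 fold change was 0.44 and the female 0.73, and male replicate 1, against its genotype label, had the lowest male Ts65Dn value. No member was called without the libraries against their genotype label or without all 8 that stand apart either, but the members with an unadjusted p under 0.05 then numbered 5 (9.04% of genes) and 10 of 38 (15.6% of genes). Members called in males and not in females included Tiam1, Scaf4, Son, Sh3bgr, Pcp4 and Prdm15, and those called in females and not in males included Eva1c, Slc5a3, Ttc3 and Hlcs, none of which passed the test of the difference between the sexes.

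Between the stages, 35 of 18078 genes passed the interaction test (0.194%) and no member did. B3galt5 (-0.45 ± 0.16, adjusted p = 0.300), Map3k7cl (-1.06 ± 0.48) and Ripply3 (-0.81 ± 0.40) had an unadjusted p under 0.05, each with a lower ratio in adults, where 9.31% of genes were under it. DESeq2 called 121 genes (0.669%) and no member. The order of the ratios was not shared between the stages (Spearman's rho 0.01 and Pearson's r -0.24 over 37 members), and over 38 members that of males and females was weakly shared (0.35 and 0.47).

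The last comparison asked whether the members changed when the Brwd1 copy number was restored. None of the 38 tested members was called in Ts65Dn;Brwd1+/- vs Ts65Dn in males, females or their mean, and no gene of the tables was (0.0%). At an unadjusted p under 0.05 there were 2 members in males (Hunk and Sh3bgr, beside 7.48% of genes), 2 in females (Cbr3 and Dnajc28, beside 3.52%) and 3 in the mean (Cbr3, Hunk and Sh3bgr, beside 5.11%), all lower in the cross. DESeq2 called 1, 12 and 5 genes in these comparisons (0.00593%, 0.07% and 0.0287%) and no member. Over all alternatives the genes called ran from 0 to 586 in males, from 0 to 421 in females and from 0 to 1186 in the mean. The median log2 fold change of the members was -0.04 in males, -0.05 in females and -0.07 in the mean, where the other genes of the segment had -0.07, -0.06 and -0.07. Without the 4 libraries against their genotype label, of which 3 were in the cross, the member medians were -0.01, -0.02 and -0.03, and 2, 1 and 1 members had an unadjusted p under 0.05 (5.33%, 3.69% and 3.71% of genes). Without all 8 libraries that stand apart the medians were -0.01, 0.01 and -0.0045, with 5, 2 and 3 such members (9.14%, 4.55% and 4.51% of genes).

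A return from 3 copies to 2 would be a loss of 0.585 on the log2 scale. In the mean of the sexes the 95% interval lay wholly above such a loss for 35 of the 38 members, and 35 intervals held 0. Sh3bgr, a small protein with an SH3-binding motif, had the largest difference, in males. It ran from 1.31 to 2.58 CPM in euploid, from 2.02 to 3.50 CPM in Ts65Dn and from 0.924 to 2.51 CPM in Ts65Dn;Brwd1+/- males, a difference of -0.68 ± 0.20 (adjusted p = 0.616) in the cross. The ranges of both trisomic groups overlapped. Its lowest value in the cross was that of replicate 2, against its genotype label, and without the libraries against their label the difference was -0.46. In females the difference of Sh3bgr was -0.02. Hunk was 62.8 to 114 CPM in Ts65Dn and 57.3 to 82.6 CPM in Ts65Dn;Brwd1+/- males, a difference of -0.26 ± 0.11 (adjusted p = 0.626), and the lowest value in the cross was again that of replicate 2. Cbr3 was 13.4 to 20.99 CPM in Ts65Dn and 9.88 to 19.9 CPM in Ts65Dn;Brwd1+/- females, a difference of -0.29 ± 0.12 (adjusted p = 1.0). The lowest of these was replicate 3, against its genotype label, and without the libraries against their label the differences were -0.22 for Hunk and -0.23 for Cbr3.

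Set against euploid animals of the same sex, 16 members were higher in male Ts65Dn;Brwd1+/- animals (0.439% of all genes, median log2 fold change 0.41) and 14 in females (0.554%, median 0.42), with none lower (0.136% and 0.175% of genes). The comparisons of both trisomic genotypes share their euploid libraries, so they are not independent. Without the libraries against their genotype label, 26 members were higher in males (median 0.55, 0.994% of genes) and 19 in females (median 0.48, 0.854% of genes), and without all 8 libraries that stand apart 27 (1.12%) and 24 (1.94%). The largest female values, 1.17 for Mrap and 1.14 for Ripk4, did not pass the test (adjusted p = 0.257 and 0.179) and belonged to members at or below 0.4 RPKM in euploid adults. For Cct8, male Ts65Dn;Brwd1+/- libraries ran from 157 to 262 CPM (median 244) beside 139.8 to 172 CPM in euploid males, and the lowest of them was replicate 8, against its genotype label. For Prdm15, they ran from 21.3 to 26.6 CPM beside 16.7 to 21.4 CPM. The lowest was again replicate 8, and replicate 2, also against its genotype label, had 22.2 CPM.

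**Figure D5:**
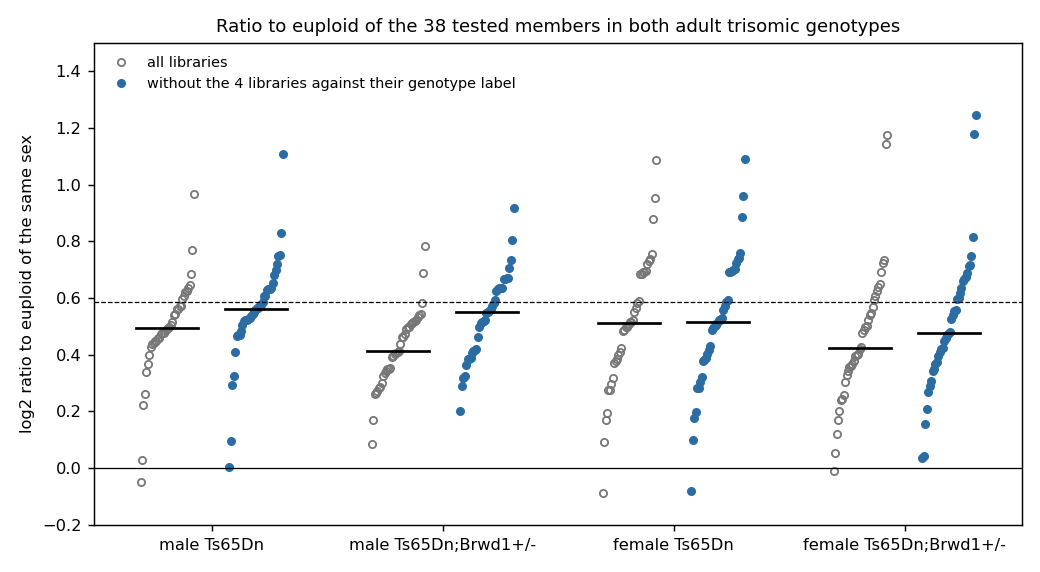
Log2 ratio to euploid of the same sex for the 38 tested members (points, sorted) in each adult trisomic genotype, with all libraries (open) and without the 4 libraries against their genotype label (filled). Black bars mark the medians and the dashed line a ratio of 1.5. The median of male Ts65Dn;Brwd1+/- moves from 0.41 to 0.55 without these libraries, beside 0.49 and 0.56 in male Ts65Dn.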

How the data were processed

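The authors mapped single reads of unstranded, poly(A)-selected libraries to mm10 with HISAT2 (2.1.0 in the submitters' processing notes, while the methods name another version), counted them on genes with featureCounts 2.0.1, and deposited raw counts per gene as whole numbers, without normalization. Rows carry Entrez identifiers, although the methods name an Ensembl annotation. Reads of 2 flow cells were joined per library.

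The counts were tested here in R 4.3.3 with edgeR 4.0.16 (TMM scaling, filterByExpr, robust quasi-likelihood test), with Benjamini-Hochberg adjustment over all genes tested and a threshold of 0.1. The 15 embryos had a fit of their own, as had the adults of each sex, all 47 adults (mean of the sexes, sex by genotype) and all 62 libraries (stage by genotype). No RUVr factor was used in the values reported, since the methods give no number of factors. A ratio of 1.5 was tested by an offset of its logarithm in the trisomic libraries, adjusted over the tested genes of both segments. Standard errors come from the log2 fold change and its F statistic, with 95% intervals from them. CPM use TMM-scaled totals and RPKM the exon length in GENCODE. Positions and promoter windows are RefSeq's (GRCm38.p6), found for 25275 genes and, among the members, for 41 and 31.

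The members and lists were chosen with earlier results of these data known. Values by library are given for the members called against 1.5-fold, the 3 highest and 3 lowest at each stage, those called in the cross or an interaction, and the highest in level of each role group. C2cd2, Cbr3, Sh3bgr and Kcne1 were added after their values were seen. The tests were tested on simulated data. Depth was 14.9 to 137.1 M reads, and counting error is small beside the spread between animals except for members under 1 RPKM. P-values measure the spread between these animals. No 2 libraries of a group agreed within sampling noise. The alternatives were upper-quartile scaling, no filter, 1 and 3 RUVr factors, DESeq2 1.42.0, a threshold of 0.05, only the groups compared, centring on genes outside the segments, blocks, and leaving out libraries that stand apart. Leaving out the 2 libraries low in genes with long exons, all 8 that stand apart, or E17.5 euploid replicate 3 was chosen after seeing the data.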

Additional observations from a re-analysis of the deposited data

Results flagged for a closer look

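In the 168 sets of 7 or 8 libraries examined (each named member, and the members' median, in each group), 21 held a library farther from the rest than Dixon's 95% limit allows. Chance flags about 1 in 20 sets.

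Of these, 9 belong to libraries against their genotype label. Male Ts65Dn replicate 1 stood apart with 156 CPM for Cct8, 100.5 CPM for Tmem50b, 47.8 CPM for Cbr1, 924 CPM for Ttc3 and a median log2 ratio of the members of 0.0531. Female Ts65Dn;Brwd1+/- replicate 3 stood apart with 7.34 CPM for Rwdd2b, 157 CPM for Cct8, 102 CPM for Tmem50b and a median of the members of -0.00893. Female euploid replicate 2, low in genes with long exons, had 182 CPM for Son, whose exons span 14907 bases, and was high in Tmem50b (114 CPM) and Cbr1 (73.0 CPM), whose exons span 2446 and 2554 bases. Female Ts65Dn;Brwd1+/- replicate 7, the other library of this kind, had 1.21 CPM for Mrap.

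E17.5 euploid replicate 3 had 3.58 CPM for Sim2 and 20.3 CPM for Adamts5, and female euploid replicate 7, against its sex label, 9.03 CPM for Adamts5. Ripk4 reached 3.32 CPM in male euploid replicate 4 and 4.49 CPM in male Ts65Dn;Brwd1+/- replicate 4, libraries whose choroid plexus markers summed to 4419.5 and 3137 CPM. Mrap reached 0.763 CPM in male Ts65Dn;Brwd1+/- replicate 1, Map3k7cl 0.988 CPM in E17.5 Ts65Dn replicate 5, and Pcp4 fell to 68.5 CPM in male euploid replicate 5. No difference of effect between the sexes or the stages was called among the members.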

How the results depend on the processing

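No member was lower in Ts65Dn vs euploid under any alternative. Of the 143 counts of members called, 121 stayed within 1.5 times the value reported. With 3 RUVr factors, 1 member was called lower in Ts65Dn;Brwd1+/- vs Ts65Dn in males (Sh3bgr), 1 in females (Cbr3) and 2 in the mean of the sexes, 28 and 32 were higher than euploid in the male and female cross, 6 differed from 1.5-fold at E17.5 (B3galt5 and Pcp4 above it) and 6 in adults, and the interactions with sex and with stage called 1 each (Ttc3 and B3galt5). With 1 factor, 28 were higher in the female cross than in euploid, and 2 and 4 differed from 1.5-fold at E17.5 and in adults; with DESeq2, 2 did at E17.5. The male cross vs euploid had 26 without the libraries against their genotype label, 27 without all 8 that stand apart and 9 at a threshold of 0.05, and the female cross 24 without all 8. In adults 7 and 6 members differed from 1.5-fold without the libraries against their sex label and without all 8. At E17.5, 19 of 36 members were higher within the 8 embryos of title number 1 (0.754% of genes) and 3 within the 7 of title number 2 (0.118%), and 0 differed from 1.5-fold within either. With the title number as a block, 24 members were higher and Prdm15 was called below 1.5-fold. Sim2 at E17.5 turned to -0.27 within title number 2, and Map3k7cl in adults to 0.0068 without the libraries against their genotype label and to 0.0149 without those low in genes with long exons. The replicate block at E17.5 gave 23 members higher; deviations of same-numbered embryos correlated from -0.13 to 0.23 over 7 pairs, 3 of them over 0.1, so the numbers were not taken as pairs. Counts over all genes moved more, for instance from 21 to 3621 at E17.5. In Ts65Dn;Brwd1+/- vs Ts65Dn they ran from 0 to 586 in males, 0 to 421 in females and 0 to 1186 in the mean. In Ts65Dn;Brwd1+/- vs euploid they ran from 37 to 837 in males and from 67 to 3190 in females. The share of all genes in the fits with RUVr factors or blocks, or at a threshold of 0.05, is not given, so their counts of members cannot be set beside it. The cause of these changes was not tested. Members under 1 RPKM limit what depth can show.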

Other observations

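Mean levels of the members in euploid tissue differed between forebrain at E17.5 and adult hippocampus for some of them. In RPKM, B3galt5 was at 1.78 ± 0.59 (SD, n = 8) at E17.5 and 13.6 ± 2.04 (n = 16) in adults, Cbr3 at 2.35 ± 0.86 and 8.66 ± 1.32, and Tiam1 at 6.17 ± 0.69 and 16.3 ± 2.67. Psmg1 (17.7 ± 1.81 and 7.15 ± 0.61), Pigp (17.502 ± 1.39 and 7.07 ± 0.49) and Paxbp1 (24.1 ± 2.65 and 9.16 ± 1.90) were higher at E17.5. These 6 genes are examples picked from the members, and the share of all genes that differ as much is not given. The stages differ in tissue, age and depth, their CPM were scaled apart, and no test was run on these levels.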
